A study of Mus musculus with 7 samples.

Results

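Bone morphogenetic proteins (BMPs) and their receptors were followed by 9 genes, the ligands Bmp2, Bmp4, Bmp5, Bmp6, Bmp7 and Bmp10 and the receptors Bmpr1a, Bmpr1b and Bmpr2. They were chosen as all probes that carry 1 of these gene names, which gave 11 probes and 9 of the 34792 gene names on the array. Total RNA of 7 mouse samples was measured, each on its own single-colour array. The cultured samples were cardiac mesenchymal progenitors (CMPs), adherent cells grown from adult C57BL/6 heart tissue on collagen I in DMEM/F12 with 10% FBS (fetal bovine serum) and bFGF (basic fibroblast growth factor) at 40 ng/ml. Postmortem CMPs came from tissue held for 24 h at 4 °C (1 ventricular and 1 atrial culture). Living CMPs came from tissue of living animals (1 ventricular and 1 atrial culture). Adult heart was 1 purchased RNA, whose number of animals was not given in the sources used here. Fetal heart of embryonic day 16.5, C57BL/6 strain, was 1 transgenic sample, labelled C57BL/6-Tg(Myh6-EGFP)MG2, in which the Myh6 promoter, active in heart muscle cells, drives a fluorescent protein, and 1 wild-type sample. The labels do not say whether samples of a group came from separate animals or cultures, and each CMP source and chamber has 1 array. The p-values below thus cover spread among these arrays alone, part of which may be technical, and none among repeat CMP cultures.

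BMPs are secreted dimers that bring type I receptors (Bmpr1a, Bmpr1b) and type II receptors (Bmpr2) together at the cell surface. The type II receptor phosphorylates the type I receptor, which phosphorylates the messengers Smad1, Smad5 and Smad9, and these enter the nucleus with Smad4 and switch on genes such as Id1. In the developing heart BMP signals take part in forming heart muscle, the cushions that become valves, the outflow tract and the trabeculae of the ventricle.

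Levels are given as log2 of the processed spot signal minus the array's 75th percentile, so 0 is the brightness of the probe at that percentile and 1 unit is a doubling. They compare the same probe across arrays, not different genes. A probe was taken as measured where the scanner software marked it as well above background, as it did for 46.5% to 52.5% of probes per array. All arrays lay on 1 slide with 1 scan time, and the CMP and heart arrays lay in different rows of it, so row and sample kind cannot be told apart. The cell labels were set against marker genes. Of 7 stromal markers, 7 were well above background on every array, with a summed level of 1295 to 1734 times the 75th percentile in CMPs and 363 to 504 times in hearts. Of 8 cardiomyocyte markers, 1 or 2 were well above background in CMPs (sum 1.06 to 14.3) and 8 in hearts (sum 2308 to 6022). Myh6, Tnni3, Actc1, Actn2, Myl3 and Pln were not well above background in any CMP culture. Erythroid markers summed to 0.0566 to 0.0924 in CMPs and 1107 to 1859 in hearts, and endothelial markers to 10.0 to 16.4 in CMPs and 19.4 to 30.6 in hearts. These sums move with every difference between CMPs and heart below, and their part in it was not tested. Single markers did not all follow their sum. Dcn was highest in adult heart, at 8.28 against 6.25 to 8.02 in CMPs. Kdr overlapped, at 2.45 to 3.18 in CMPs and 2.47 to 3.34 in hearts, as did Lum, Npr3 and Nfatc1. The other stromal and endothelial markers went with their sum. In such bulk RNA, fewer cells of a type and less RNA per cell cannot be told apart.

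The level of Bmp10 rests on a single probe of 60 bases (mm9, chr6:87384427-87384486, plus strand), shown here because it is what that level measures. Read from its first base it holds 19 codons without a stop before the stop codon in capitals.
Bmp10 probe: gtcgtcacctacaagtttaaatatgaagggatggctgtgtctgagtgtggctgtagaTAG
The remaining probes lie, by the mm9 positions in the array files, at chr2:133388260-133388319 (Bmp2), chr14:47003391-47003450 and chr14:47003198-47003257 (Bmp4), chr9:75746444-75746503 (Bmp5), chr13:38591479-38591538 (Bmp6), chr2:172695203-172695262 (Bmp7), chr14:35224339-35224398 (Bmpr1a), chr3:141503374-141503433 and chr3:141500694-141500753 (Bmpr1b) and chr1:59927276-59927335 (Bmpr2). The exon or UTR they lie in was not analysed here. For Bmp4 and Bmpr1b, the brighter of the 2 probes over all arrays was used. The other Bmp4 probe, with 15% G and C against 38.3% in the one used, was not well above background on any of the 7 arrays (-6.78 to -5.54). The other Bmpr1b probe was well above background only in wild-type fetal heart, at -3.39.

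Bmp10 and Bmp5 were well above background only in fetal heart and Bmp4 on every array, though Bmp10 did not pass between adult and fetal heart. The bases before the start of these 3 ligands are shown because their patterns, described below, contrasted. Each is 250 bases of RefSeq sequence (GRCm38.p6), read 5′ to 3′ on the gene's strand and ending at the base before the start, with the GATA-type motif AGATAA on either strand in capitals. The windows lie at chr6:87428744-87428993 (Bmp10, plus), chr9:75775115-75775364 (Bmp5, plus) and chr14:46390670-46390919 (Bmp4, minus).
Bmp10: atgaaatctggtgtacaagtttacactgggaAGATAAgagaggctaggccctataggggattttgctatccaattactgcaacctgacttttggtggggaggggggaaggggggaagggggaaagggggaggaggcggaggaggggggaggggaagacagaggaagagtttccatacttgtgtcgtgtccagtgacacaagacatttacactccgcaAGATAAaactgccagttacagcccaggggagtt
Bmp5: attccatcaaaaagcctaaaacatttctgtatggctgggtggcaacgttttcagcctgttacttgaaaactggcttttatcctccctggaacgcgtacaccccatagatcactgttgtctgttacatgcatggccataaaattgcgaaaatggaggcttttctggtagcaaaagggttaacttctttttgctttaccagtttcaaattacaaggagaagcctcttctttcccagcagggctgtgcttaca
Bmp4: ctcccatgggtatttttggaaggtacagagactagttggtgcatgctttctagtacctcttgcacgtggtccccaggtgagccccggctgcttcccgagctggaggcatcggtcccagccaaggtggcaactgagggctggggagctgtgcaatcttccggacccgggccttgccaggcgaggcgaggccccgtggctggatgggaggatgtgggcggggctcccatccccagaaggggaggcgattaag
AGATAA occurred 2 times before Bmp10 and not in the 250 bases before Bmp5 or Bmp4. RefSeq windows were matched for 7 of the 9 genes, and of their 9 windows only that of Bmp10 held the motif, which 9.99% of 32851 windows of this length hold. CANNTG was in 4 of the 9 windows and in 66.2% of all, GGGCGG in 4 and 32.7%, CCAAT in 3 and 33.9%, GGCGCC in 2 and 9.59%, TATAAA in 1 and 12.4%, and TTATNA in 1 and 25.6%. None of the 9 windows held the NKX-type letters TTAAGTG or the shorter form CAAGTG, the TEAD-type letters CATTCC, the Smad palindrome GTCTAGAC or the cyclic AMP site TGACGTCA. Both strands were searched, and a match is a description of letters only.

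The first comparison set CMPs against the fetal heart used as a positive control. Differences were tested in 1 limma fit of all 7 arrays over all genes measured on every array of at least 1 side, with Benjamini-Hochberg adjustment and a threshold of 0.05. For each gene the spread in that fit is partly the gap between the fetal hearts, which differ in genotype. The rest is any dependence of the postmortem difference on chamber. Its SEs and p-values therefore do not measure spread among repeat CMP cultures. Of the 9 genes, 8 passed between CMPs and fetal heart, 3 higher and 5 lower in CMPs. Of all 20052 genes tested 47.7% passed, 22.3% higher and 25.3% lower. Bmp5, Bmp7, Bmp10 and Bmpr1b entered this test only through fetal heart, where they were high, so their being lower in CMPs follows in part from entering it. The median difference of the 9 genes was -1.70, against -0.03 over all genes tested.

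**Figure D1:**
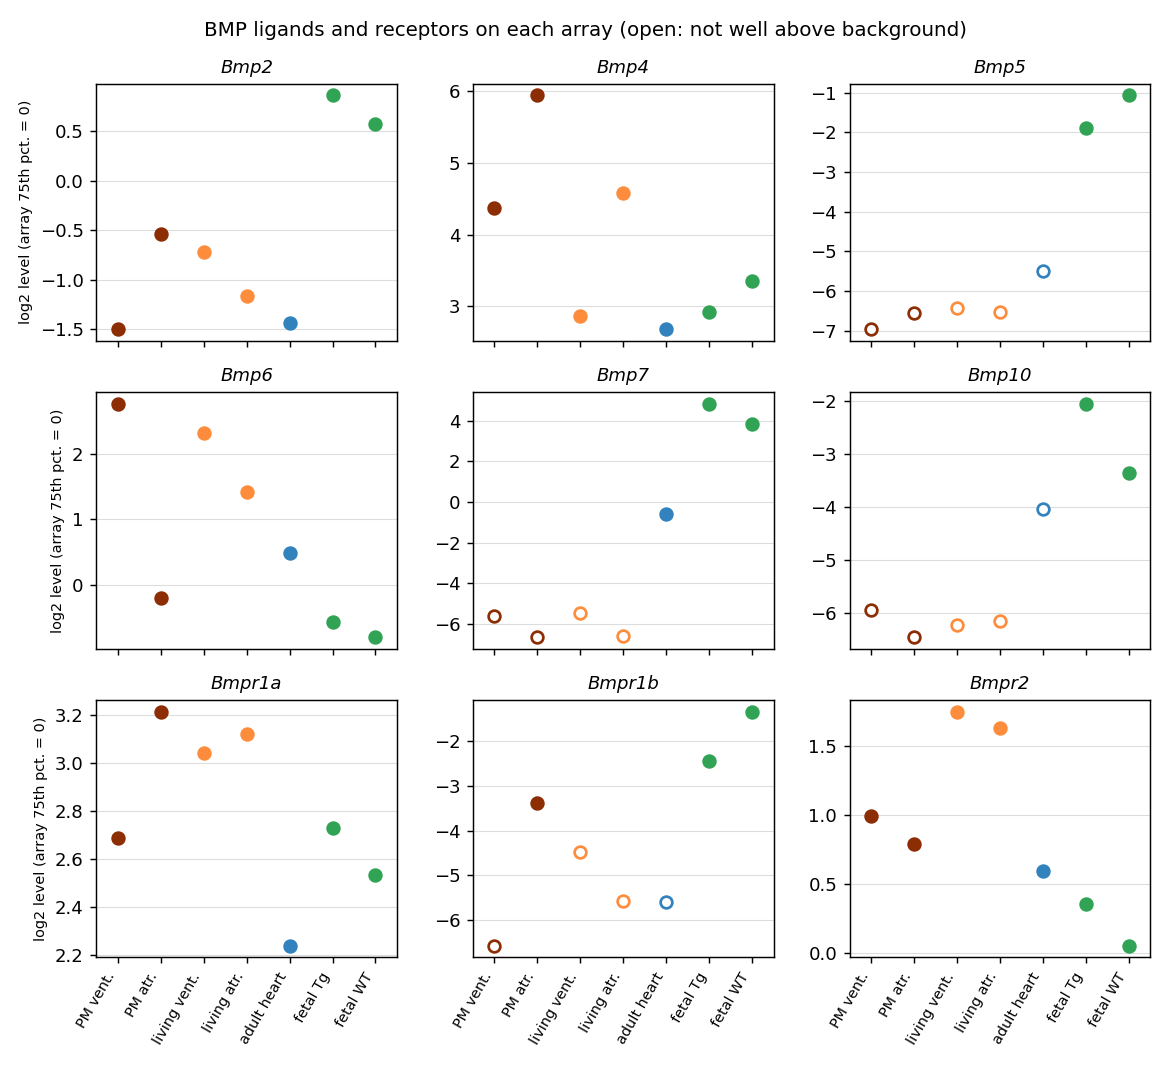
Level of each of the 9 genes on each of the 7 arrays, as log2 relative to the array's 75th percentile, with postmortem (PM) and living CMP cultures at the left and adult and fetal heart at the right. Open circles mark arrays where the probe was not well above background, which holds for all 4 CMP cultures at Bmp5, Bmp7 and Bmp10. Each panel has its own vertical range.

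Bmp7, Bmp5 and Bmp10 were measured in fetal heart and not in any CMP culture. Bmp7, a ligand of the developing valves, outflow tract and kidney, had log2 levels of -5.63 and -6.68 in postmortem ventricular and atrial CMPs and of -5.48 and -6.63 in living ventricular and atrial CMPs. It stood at -0.61 in adult heart, at 4.85 in Myh6-EGFP fetal heart and at 3.82 in wild-type fetal heart. All 4 CMP cultures were thus below adult heart, which was below both fetal hearts. Since no CMP array was well above background, a lower bound of the fold was taken. It used, on each CMP array, the higher of the gene's own level and the lowest measured signal. That signal is no strict limit of detection, since probes not well above background can exceed it. Bmpr1b in living ventricular CMPs did so, at -4.48 against -4.63. Such bounds, here and below, hold for the main background subtraction only. By it Bmp7 was at least 553-fold lower in CMPs than in fetal heart (limma adjusted p = 8.31e-05) and at least 17.9-fold lower than in adult heart (adjusted p = 0.000861), a test it likewise entered only through the heart side. With normexp background correction the differences were -7.08 and -2.45 on the log2 scale, which are both smaller than these bounds.

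Bmp5, a ligand close in sequence to Bmp7 that acts with it in the cushions of the mouse heart, stood between -6.96 and -6.44 in the 4 CMP cultures and at -5.50 in adult heart. None of these 5 arrays was well above background. It reached -1.89 in Myh6-EGFP and -1.06 in wild-type fetal heart. It was at least 9.83-fold lower in CMPs than in fetal heart (limma adjusted p = 0.000619). With normexp background correction the difference was -1.72 on the log2 scale, which is smaller than that bound (adjusted p = 0.00164). Bmp10, which maintains the growth of trabecular muscle in the embryonic mouse heart, stood between -6.47 and -5.95 in CMPs and at -4.03 in adult heart, again not well above background. It was measured at -2.04 in Myh6-EGFP and -3.35 in wild-type fetal heart. It was at least 4.22-fold lower in CMPs than in fetal heart (limma adjusted p = 0.00332), a call that ended with normexp background correction (difference -0.85, adjusted p = 0.0617). That difference too is smaller than the bound.

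Bmp2, the ligand of the atrioventricular canal that induces cushion formation, was measured on all 7 arrays. Its log2 levels were -1.50 and -0.53 in postmortem ventricular and atrial CMPs, -0.72 and -1.17 in living ventricular and atrial CMPs, -1.43 in adult heart, and 0.87 and 0.57 in Myh6-EGFP and wild-type fetal heart. Adult heart lay within the CMP range, and both fetal hearts lay above it. Bmp2 averaged -0.98 ± 0.44 in CMPs (SD, n = 4) and 0.72 ± 0.21 in fetal heart (SD, n = 2), a difference of -1.70 ± 0.34 (SE, limma adjusted p = 0.0100). Without Myh6-EGFP fetal heart the adjusted p was 0.0785 and without wild-type fetal heart 0.0539.

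Bmp4, a ligand of the second heart field and outflow tract, and Bmp6, a ligand best known for control of iron through hepcidin in liver, were higher in CMPs than in fetal heart. Bmp4 had log2 levels of 4.37 and 5.94 in postmortem ventricular and atrial CMPs, 2.86 and 4.58 in living ventricular and atrial CMPs, 2.68 in adult heart, and 2.93 and 3.35 in Myh6-EGFP and wild-type fetal heart. Living ventricular CMPs were below both fetal hearts, so the groups overlap, and the other 3 cultures were above them. Bmp4 averaged 4.44 ± 1.26 in CMPs (SD, n = 4) and 3.14 ± 0.30 in fetal heart (SD, n = 2). Its difference was 1.30 ± 0.18 (SE, limma adjusted p = 0.00255) with a term for chamber in the fit, and its adjusted p was 0.133 without that term.

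Bmp6 had log2 levels of 2.77 and -0.20 in postmortem ventricular and atrial CMPs, 2.32 and 1.41 in living ventricular and atrial CMPs, 0.49 in adult heart, and -0.57 and -0.81 in Myh6-EGFP and wild-type fetal heart. Every CMP culture was above both fetal hearts, and the postmortem atrial culture was below adult heart. Bmp6 averaged 1.58 ± 1.31 in CMPs (SD, n = 4) and -0.69 ± 0.17 in fetal heart (SD, n = 2), a difference of 2.27 ± 0.42 (SE, limma adjusted p = 0.00753). This call too was lost without the chamber term (adjusted p = 0.0630), without Myh6-EGFP fetal heart (0.0546) and without wild-type fetal heart (0.0700).

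Among the receptors, Bmpr1a, the type I receptor needed for early heart formation in the mouse, was measured on all arrays over a narrow range. Its log2 levels were 2.69 and 3.21 in postmortem ventricular and atrial CMPs, 3.04 and 3.12 in living ventricular and atrial CMPs, 2.24 in adult heart, and 2.73 and 2.53 in Myh6-EGFP and wild-type fetal heart. The difference between CMPs and fetal heart was 0.38 ± 0.17 (SE), which did not pass (limma adjusted p = 0.114).

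Bmpr2, the type II receptor mutated in heritable pulmonary arterial hypertension in humans, stood at 0.99 and 0.79 in postmortem ventricular and atrial CMPs and at 1.74 and 1.63 in living ventricular and atrial CMPs. It stood at 0.59 in adult heart and at 0.36 and 0.05 in Myh6-EGFP and wild-type fetal heart. No CMP culture reached down to any heart sample. The difference between CMPs and fetal heart was 1.08 ± 0.19 (SE, limma adjusted p = 0.00573).

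Bmpr1b, the type I receptor best known for cartilage and ovary, was well above background in both fetal hearts, at -2.45 in the Myh6-EGFP and -1.34 in the wild-type sample. Among the CMPs it was measured only in the postmortem atrial culture, at -3.39, and the other 3 stood between -6.58 and -4.48. Adult heart, at -5.61, was not well above background. The difference between CMPs and fetal heart was -3.11 ± 0.90 (SE, limma adjusted p = 0.0349). It did not pass without Myh6-EGFP fetal heart (adjusted p = 0.105), without wild-type fetal heart (0.208) or with a variance prior without a trend (0.0535). With normexp the difference was -1.09.

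Against adult heart, 6 of the 9 genes could be tested and 3 passed, 2 higher and 1 lower in CMPs, beside 48.7% of all 20278 genes tested (23.3% higher and 25.4% lower). Adult heart is 1 array and was assumed to vary like the other groups. Bmp4 differed by 1.76 ± 0.23 (SE, limma adjusted p = 0.00240), a call that was lost without the chamber term (adjusted p = 0.114) and when its dim second probe was averaged in (0.222). Bmpr1a differed by 0.78 ± 0.22 (SE, adjusted p = 0.0306), and all 4 cultures were above the adult array. Its adjusted p was 0.0890 without the postmortem atrial culture and 0.0896 without the living ventricular one, in fits whose spread is that of the fetal hearts alone. It was 0.0716 with a variance prior without a trend. Bmp7 is given above. Bmpr2, at 0.70 ± 0.24 (SE, limma adjusted p = 0.0575), Bmp6, at 1.09 ± 0.54 (adjusted p = 0.147), and Bmp2, at 0.46 ± 0.44 (adjusted p = 0.426), did not pass. Bmpr2 passed narrowly without the chamber term (0.0473) and without either fetal heart (0.0490 and 0.0497). Without the postmortem atrial culture Bmp6 differed by 1.60 (adjusted p = 8.43e-05), and likewise without the living ventricular culture (0.000215), again with the spread of the fetal hearts alone. Bmp5, Bmp10 and Bmpr1b were not well above background in adult heart and were not tested.

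**Figure D2:**
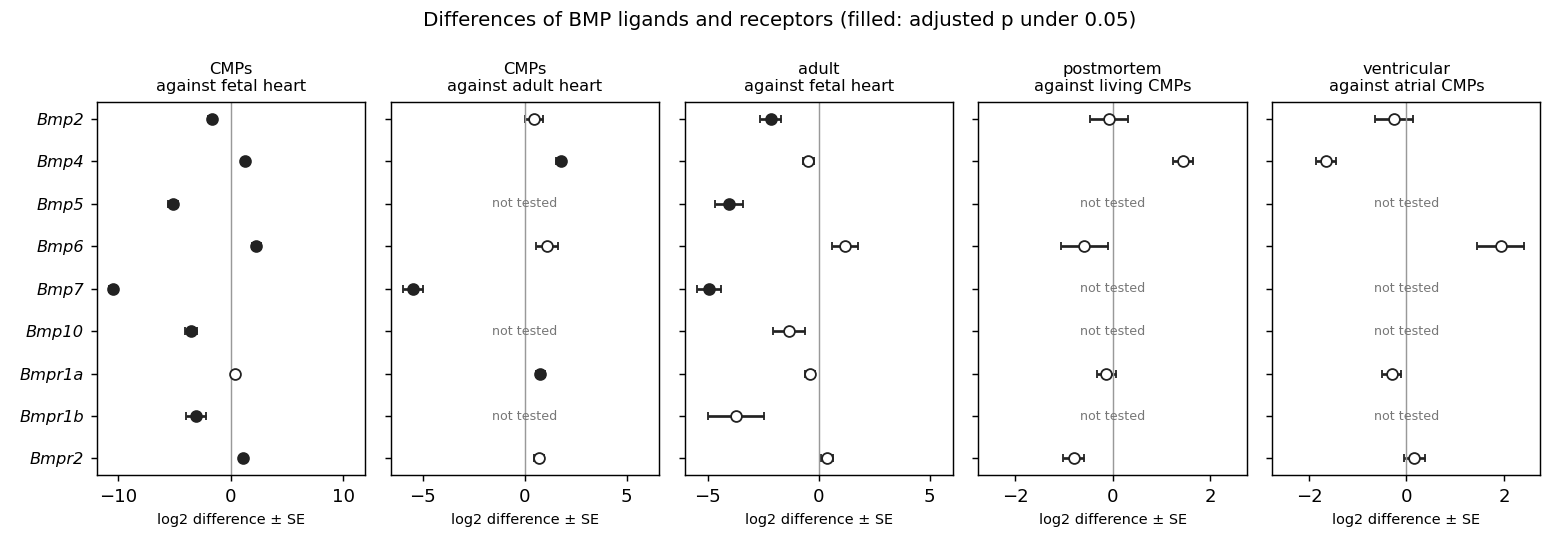
Log2 difference with its standard error for each gene in 5 comparisons (first-named group minus the second), with filled circles for an adjusted p under 0.05. Filled circles stand for 8 genes against fetal heart, 3 in each comparison with adult heart, and none within the CMPs. The horizontal ranges differ between panels, and the fitted differences of Bmp5, Bmp7, Bmp10 and Bmpr1b rest on signals near background.

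Between adult and fetal heart, 3 of 9 genes passed, all lower in adult heart, beside 36.3% of all 20946 genes tested and 17.2% that passed as lower. These were all ligands. Bmp7 differed by -4.95 ± 0.54 on the log2 scale (SE, limma adjusted p = 0.00259). Bmp5 was at least 4.44-fold lower in adult heart (adjusted p = 0.00728), where it was not well above background, so that it entered this test only through fetal heart. Bmp2 differed by -2.15 ± 0.48 (SE, adjusted p = 0.0204), with an adjusted p of 0.0758 without Myh6-EGFP and of 0.0642 without wild-type fetal heart. Bmp10 (at least 1.91-fold lower, adjusted p = 0.200) and Bmpr1b (at least 3.33-fold lower, adjusted p = 0.0684), also not well above background in adult heart, did not pass, nor did Bmp4, Bmp6, Bmpr1a and Bmpr2, which differed by -0.46, 1.18, -0.39 and 0.39. Bmp6 and Bmpr1b passed when only the 3 heart arrays were fitted (adjusted p = 0.0283 and 5.29e-07) and when any 1 CMP array was left out, all fits whose spread is that of the 2 fetal hearts. Bmp5 did not pass with normexp (0.0540). Over the alternatives other than single arrays left out, the Bmp10 difference ran from -1.78 to -0.06. The dimmest probe well above background stood at -3.63 in adult heart, against -5.25 in wild-type and -4.28 in Myh6-EGFP fetal heart.

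The 2 fetal hearts differ in genotype, with 1 array each and no test. Bmp10 was 1.31 higher and Bmp7 1.02 higher on the log2 scale in the Myh6-EGFP heart than in the wild-type heart. Bmpr1b, at -1.10, and Bmp5, at -0.82, were lower in it. Of 19372 genes measured on both arrays, 3.18% differed by at least as much as Bmp10 and 7.39% by at least as much as Bmp7. The summed cardiomyocyte markers were 4159 in the Myh6-EGFP and 2308 in the wild-type heart, and their part in these differences was not tested.

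Within the CMPs, the central question of the study was whether cultures of stored postmortem tissue differ from cultures of living tissue. None of the 5 genes tested passed, beside 0.105% of all 19013 genes (20 genes) in the same limma fit, and 2 of the 5 had an unadjusted p under 0.05, as did 2085 of all genes. Bmp4 was higher in the postmortem culture of each chamber, by 1.51 on the log2 scale in the ventricular pair and by 1.37 in the atrial pair. In the fit it differed by 1.44 ± 0.20 (SE, adjusted p = 0.132) and ranked 75 of the 19013 genes by p. Bmpr2 was lower in the postmortem culture of each chamber, with a difference of -0.75 in the ventricular and -0.84 in the atrial pair. In the fit it differed by -0.80 ± 0.21 (SE, adjusted p = 0.308). Both postmortem cultures were below both living ones at Bmpr2. How many of all genes separate this way was not worked out. At Bmp4 the groups overlapped, since the living atrial culture exceeded the postmortem ventricular one. Of genes measured in both ventricular cultures, 1.93% differed by at least as much as Bmp4 and 9.76% as Bmpr2. In the atrial pair these shares were 7.24% and 15.9%. Bmp2 (-0.07 ± 0.39), Bmp6 (-0.58 ± 0.48) and Bmpr1a (-0.13 ± 0.19) differed by less than or little more than their SE. With any 1 CMP array left out, each difference is that of a single pair, 1 array against 1. The only spread left in the fit is then that between the 2 fetal hearts, which differ in genotype, and the CMP cultures are assumed to vary like them. Under that assumption Bmp4 crossed the threshold (limma adjusted p = 0.00744 to 0.0107), as did Bmp6 without either ventricular culture (-1.61, adjusted p = 0.00856 without the postmortem and 0.00835 without the living one). These p-values say nothing of the variation among CMP cultures.

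The chamber of origin was compared over both source states. None of 5 genes tested passed, beside 0.0106% of all 18912 genes (2 genes), and 2 of the 5 had an unadjusted limma p under 0.05, as did 1558 of all genes. Bmp4 was lower in the ventricular culture of each source, with a difference of -1.57 in the postmortem pair and -1.71 in the living pair. In the fit it differed by -1.64 ± 0.20 (SE, adjusted p = 0.124) and ranked 41 by p. With no filter on dim probes its adjusted p was 0.0495, and with any 1 CMP array left out, where the spread comes from the fetal hearts alone, it was 0.00118 to 0.00220. Bmp6 was higher in the ventricular culture of each source, by 2.97 in the postmortem pair and 0.90 in the living pair, and differed by 1.94 ± 0.48 (SE, adjusted p = 0.376). At both genes the ventricular and atrial cultures did not overlap, which also held at Bmpr1a (2.69 and 3.04 against 3.21 and 3.12). How many of all genes separate this way was not worked out. Of genes measured in both cultures of the postmortem pair, 5.44% differed by at least as much as Bmp4 and 1.04% as Bmp6. In the living pair these shares were 1.20% and 5.11%. The Bmp6 value rests largely on the postmortem atrial culture, where the 5 epicardial and mesothelial markers summed to 2.43, against 11.8 to 14.3 in the other 3 cultures. That gap is mostly Tcf21, which fibroblasts also express, at 0.56 there and 3.36 to 3.56 in the others. The list did not move together, since Upk3b and Msln stood higher there (-2.40 and -4.02) than in the living ventricular culture (-3.81 and -4.26). Of these markers 3 or 4 were well above background in each culture and Wt1 in none. Other lists also set the postmortem atrial culture apart. Of the pericyte and smooth muscle markers, Rgs5, Kcnj8 and Cspg4 were highest there among the 4 cultures, and Myh11 and Acta2 lowest. Of the endothelial markers, Tek, Emcn, Cdh5, Pecam1 and Nfatc1 were lowest there, and Kdr and Npr3 were not. The part of any of these lists in the Bmp6 value was not tested. Without the living atrial or the living ventricular culture the Bmp6 difference is that of the postmortem pair alone, 2.97. Its limma adjusted p (3.47e-09 and 8.89e-09) again rests on the spread of the fetal hearts, as does a call of Bmpr1b without the living atrial culture. Bmp2, Bmpr1a and Bmpr2 differed by -0.26, -0.30 and 0.16.

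**Figure D3:**
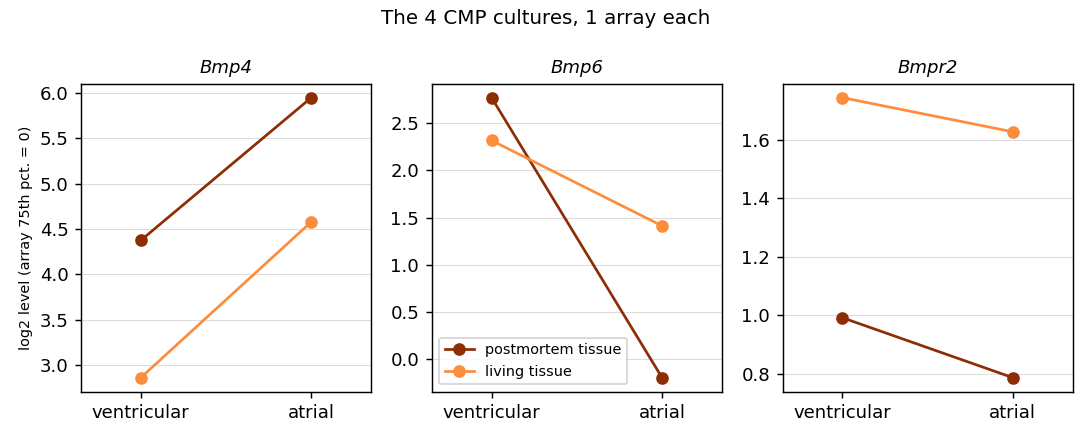
Log2 level of Bmp4, Bmp6 and Bmpr2 in the 4 CMP cultures, 1 array each, with ventricular cultures left of atrial ones and lines joining the cultures of 1 source. The Bmp4 lines run nearly parallel with the postmortem one above, the Bmp6 lines cross, and the Bmpr2 lines, which fall by at most 0.21 between chambers, have the postmortem one below.

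By the order of group means, fetal heart stood first at Bmp2, Bmp5, Bmp7, Bmp10 and Bmpr1b, postmortem CMPs at Bmp4, and living CMPs at Bmp6, Bmpr1a and Bmpr2. Neighbours in that order were set against the wider of their 2 ranges over arrays. At Bmpr2 each step, living over postmortem CMPs, adult heart and fetal heart, exceeded that range. At Bmp7 the steps among fetal heart, adult heart and CMPs did (4.95 and 5.44), and the postmortem and living CMPs, 0.097 apart, did not. At Bmp4 and Bmp6 no step among the CMPs exceeded it, nor did the step to the heart sample next in order. At Bmp2, Bmp5 and Bmp10 the step below fetal heart exceeded it, and at Bmpr1b no step did. At Bmpr1a only the step of fetal over adult heart did.

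The genes whose pattern over the 7 arrays lay closest to each member were found by the root mean square distance of centred log2 levels. They were Acap3 and Sorbs3 for Bmp4 (distances 0.42 and 0.45, against a spread of 1.11 for Bmp4 itself) and Ebf1 and Trib3 for Bmp6 (0.38 and 0.44, spread 1.32). For Bmp7 they were Bex4 and Slc38a5 (0.69 and 0.77, spread 4.64), for Bmp5 Adamdec1 and Slc44a5, and for Bmp10 Itpka and Stk32a. For Bmp2 they were Gnai1 and Slc22a17, for Bmpr1a Slc12a9 and Zfp72, for Bmpr1b Rundc3b and Isl1, and for Bmpr2 Pick1 and Plekhm3. Each was taken from at least 10799 candidate genes over 7 points, so a close match is a description only.

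The rest of the pathway was read from lists of other ligands, receptors, messengers, inhibitors, targets, antagonists and proteases. Among 9 other BMP and GDF ligands, 6 were tested between CMPs and fetal heart, and 1 was higher and 3 lower in CMPs, beside 22.3% higher and 25.3% lower of all genes tested. Gdf6, a ligand of joint and skeletal patterning, stood between 1.42 and 3.76 in the 4 cultures, against -1.39 and -1.71 in fetal heart, and differed by 4.44 ± 0.29 (SE, limma adjusted p = 0.000308). It was not well above background in adult heart, so it entered that test only through the CMPs, where it was high. It was at least 91.6-fold higher in CMPs than in adult heart (limma adjusted p = 0.000242). Gdf5, a close relative of Gdf6, differed by -2.35 from fetal heart (adjusted p = 0.00847). It was at least 2.16-fold higher than in adult heart, where it was not well above background, so it too entered that test through the CMPs. Gdf10 was not well above background in any CMP culture, entered the test through fetal heart and was at least 26.9-fold lower than in fetal heart (adjusted p = 0.00162). Gdf2, which with Bmp10 is a ligand of the endothelial receptor Acvrl1, also entered through fetal heart. It was called lower in CMPs (adjusted p = 0.0370), where it was well above background only in the postmortem atrial culture, at -3.25, against -3.32 and -3.34 in Myh6-EGFP and wild-type fetal heart.

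Of 9 other receptors and coreceptors, all tested, 5 were higher and 3 lower in CMPs than in fetal heart, beside 22.3% and 25.3% of all genes, with a median of 0.90 against -0.03 over all genes. Acvrl1, a type I receptor known from endothelium, stood at 4.73 and 3.19 in postmortem ventricular and atrial CMPs, 4.79 and 4.56 in living ventricular and atrial CMPs, 2.38 in adult heart, and 0.39 and 0.75 in Myh6-EGFP and wild-type fetal heart. It was higher in CMPs by 3.75 ± 0.29 than in fetal heart (SE, limma adjusted p = 0.000467). The type II receptor Acvr2b was lower, with a difference of -3.31 ± 0.27 (adjusted p = 0.000528), with both fetal hearts above adult heart and adult heart above all 4 cultures. Its relative Acvr2a differed by -1.01 (adjusted p = 0.0219). The coreceptors Eng (1.63), Rgma (1.31) and Rgmb (1.20) were higher. Hfe2, a BMP coreceptor of iron control in liver and muscle, was called lower (adjusted p = 0.00358) but was well above background in only 1 of the 4 cultures and entered the test through fetal heart. Against adult heart 2 of the 9 were higher, Acvrl1 (1.94) and Acvr1 (1.52), beside 23.3% of all genes. There 3 were lower, beside 25.4%: Hfe2 (-8.34), which entered through adult heart, Rgma (-2.96) and Acvr2b (-1.55). Rgma thus lay above fetal and below adult heart, and Eng and Rgmb did not pass against adult heart.

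Of the 4 BMP Smads none passed between CMPs and fetal heart (1 had an unadjusted limma p under 0.05, Smad1 at 0.83 with an adjusted p of 0.0528), and Smad1 was higher than in adult heart, by 1.27 (adjusted p = 0.0307). Of 8 inhibitors inside the cell or at the membrane that were tested, 5 were higher in CMPs than in fetal heart and none lower, beside 22.3% and 25.3% of all genes, with a median of 1.03. They included Smad7 (1.65), Smad6 (1.19), and the ubiquitin ligases Smurf1 (1.33) and Smurf2 (1.14). Of 15 target genes tested, 5 were higher and 3 lower, a median of -0.30, beside the same shares of all genes. Smad6 and Smad7 are on both lists and are counted as higher in both, so these counts are not separate. Id1, an inhibitor of DNA binding switched on directly by BMP Smads, stood between 4.92 and 5.23 in the 4 cultures, at 2.35 in adult heart, and at 3.72 and 3.63 in Myh6-EGFP and wild-type fetal heart. The cultures did not overlap the hearts. Id1 differed by 1.44 ± 0.14 from fetal heart (SE, limma adjusted p = 0.000906) and by 2.77 ± 0.18 from adult heart (adjusted p = 0.000431). Id3 and Atoh8 were higher by 2.62 and 3.30 than in fetal heart and by 3.26 and 3.34 than in adult heart. Nkx2-5 (-6.44), Hey1 (-3.55) and Tbx3 (-3.40), transcription factors of heart muscle and other heart cells, were lower than in fetal heart. Against adult heart 6 of 15 targets were higher and 3 lower, beside 23.3% and 25.4% of all genes.

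Of 14 secreted antagonists tested, 6 were higher and 1 lower in CMPs than in fetal heart, beside 22.3% and 25.3% of all genes, with a median of 0.76. The follistatin Fst, which binds activins and some BMPs, was higher by 4.03 ± 0.27 (SE, limma adjusted p = 0.000320), Bmper by 2.77, Nbl1 by 2.21 and Fstl3 by 1.77. Sostdc1, which entered through fetal heart alone, was at least 3.02-fold lower in CMPs. Against adult heart 7 of 10 were higher and 1 lower, beside 23.3% and 25.4% of all genes. Grem1, among the higher ones, entered that test through the CMPs alone. Of 4 proteases tested, Bmp1 (2.54), which despite its name cleaves procollagen and the antagonist chordin, and Pcsk6 (2.48), which cuts ligand precursors, were higher than in fetal heart. Between postmortem and living CMPs, 1 gene of all these lists passed, the antagonist Chrdl2, at least 20.0-fold lower in postmortem CMPs (limma adjusted p = 0.0398). It was well above background in neither postmortem culture and in both living ones, through which it entered the test. With a variance prior without a trend no gene passed in this comparison, so the Chrdl2 call was lost. Between the chambers none passed.

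**Figure D4:**
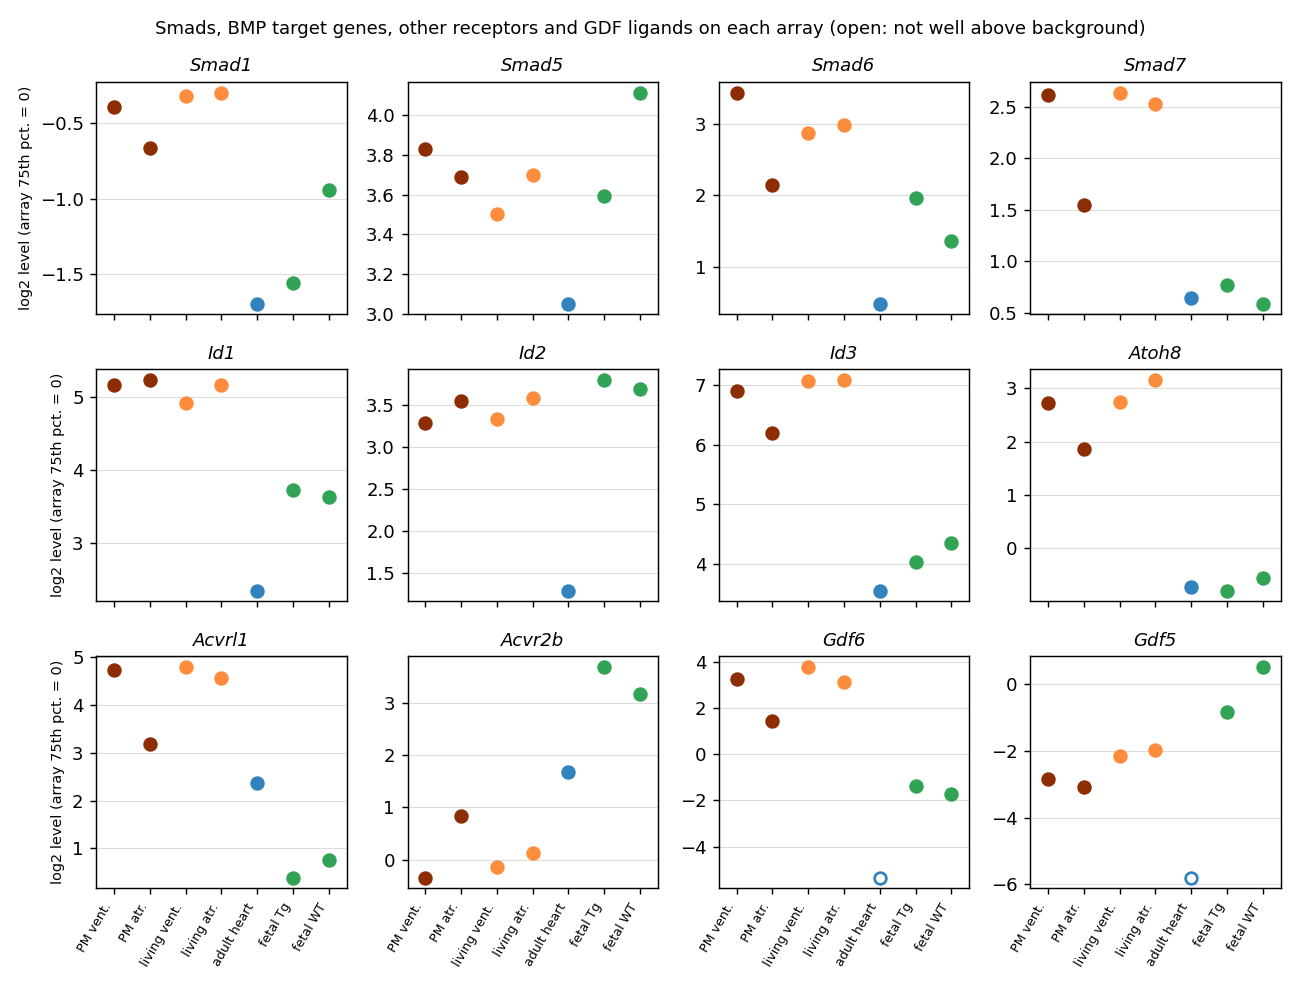
Log2 levels of 12 further pathway genes on the 7 arrays, in the same order of arrays and with open circles where not well above background. Smad1, Smad6, Smad7, Id1, Id3, Atoh8, Acvrl1 and Gdf6 stand higher in every CMP culture than in every heart sample, and Acvr2b stands lower. How many of all genes separate this way was not worked out. Each panel has its own vertical range.

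At Id3, Atoh8, Smad6, Smad7, Acvrl1 and Gdf6, as at Bmp6, the postmortem atrial culture was the lowest of the 4 CMP cultures. Id3 stood at 6.19 there and between 6.90 and 7.09 in the other 3, and Smad7 at 1.55 and between 2.53 and 2.64. Id4, Hey1, Nkx2-5, Gata4 and Tbx20, also on the target list, were lowest there too. Gata4 stood at 1.06 against 3.07 to 3.41, and Tbx20 at 1.85 against 4.62 to 5.13. The order was not shared by all targets, since Id1, Msx1 and Tbx2 stood highest of the 4 cultures there, Id1 at 5.23 against 4.92 to 5.16. The same culture had the highest Bmp4 level of the 7 arrays. The plotted genes were picked after their values were seen, and no test of this pattern was made. How many of all genes are lowest in this culture was not worked out.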

How the data were processed

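The authors deposited 1 scanner table per array with intensity columns (linear spot brightness) and flags. The processed signal is background-subtracted, per the file headers (Agilent Feature Extraction 10.7.3.1; the submitters' processing notes give 9.5.3). A further deposited table for the series holds log2 values and equals log2 of the processed signal less a constant per array for at least 99.99% of probes (within 0.001), with medians of -4.25 to -3.60. Gene names are those in the files.

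Of 59305 spots per array for 55681 probes, spots of a probe were averaged after outlier flags were dropped, and 11 probes were left out. Log2 processed signal minus the array's 75th percentile was fitted with limma 3.58.1 (R 4.3.3; lmFit, eBayes with trend), with group and CMP chamber as terms. Each gene took its probe of highest mean. The fit was tested on simulated data. A further limma fit held a term for source by chamber and left 1 residual degree of freedom, the gap between the fetal hearts. Arrays per group were 2, 2, 1 and 2, which limits the precision.

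The members and lists were chosen with earlier results of these data known. All members are named. From each list, genes called between CMPs and fetal heart are named, at most 4 of the largest per direction. For CMPs against adult heart only some called list genes are named. For adult against fetal heart none is named, though genes of these lists passed there. Likeness names the 2 nearest genes. Alternatives covered background correction, scaling, filters, probes, fit terms and left-out arrays.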

Additional observations from a re-analysis of the deposited data

Results flagged for a closer look

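The postmortem difference (postmortem minus living CMPs) was compared between the chambers, with 1 array on each side of each pair. At Bmp6 it was 0.45 between ventricular cultures and -1.61 between atrial cultures, which differ by 2.06 on the log2 scale (limma adjusted p = 0.0489). That fit has 1 array in each of the 4 CMP sources, so its 1 residual degree of freedom is the gap between the 2 fetal hearts, which differ in genotype. The p assumes that CMP cultures vary like them and does not measure spread among cultures. Of all 19013 genes 2.31% passed that test, and of the 5 members tested only Bmp6 did. In alternatives chosen after seeing the data, its adjusted p was 0.0380 with normexp, 0.0398 with the authors' deposited series table, 0.0997 with median scaling, 0.211 with no trend and 0.499 with quantile normalization.

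At Bmp2 the ventricular cultures differed by -0.78 and the atrial cultures by 0.63 (adjusted p of the limma interaction = 0.868). At Bmpr1a the ventricular cultures differed by -0.35 and the atrial cultures by 0.093 (adjusted p = 1.00). These are opposite in sign, and neither passed the test of the difference.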

How the results depend on the processing

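The count of members that passed between CMPs and fetal heart was 8, and 4 of the 5 testable where both sides had to be well above background, since Bmp5, Bmp7, Bmp10 and Bmpr1b then left the test. With 1 array left out it ranged from 5 to 8. For adult against fetal heart it was 3, and 5 with only the heart arrays, as with any 1 CMP array left out (range 2 to 5). For CMPs against adult heart it was 3, with 2 to 4 in the alternatives, and the genes changed. Bmp4 left without the chamber term and with the mean of probes, and Bmpr1a left with median scaling and with no trend. Bmp7 left where both sides had to be well above background, and Bmpr2 entered in others. With 1 array left out, postmortem against living CMPs had 0 to 2 members passing (Bmp4 in each fit without a CMP array) and ventricular against atrial CMPs 0 to 3, and 1 with no filter on dim probes. Fits without a CMP array take their spread from the 2 fetal hearts alone and those without a fetal heart from the CMPs alone, with 1 residual degree of freedom, so these counts do not measure stability among CMP cultures.

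Signs turned for members that did not pass: adult against fetal heart, Bmp4 at 0.24 with the mean of its probes; postmortem against living CMPs, without either ventricular culture, Bmp2 at 0.63 and Bmpr1a at 0.093 (ranges over single arrays left out -0.78 to 0.63 and -0.35 to 0.093), and without either atrial culture, Bmp6 at 0.45 (-1.61 to 0.45); ventricular against atrial CMPs, Bmp2 at 0.45 without either postmortem culture (-0.97 to 0.45). The cause was not tested beyond the array left out.

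Over all genes, postmortem against living CMPs gave 20 calls, with 53 under normexp, 62 without the filter, 10 with the mean of probes, 0 with no trend, and 0 to 1695 with an array left out. Ventricular against atrial CMPs gave 2 calls, with 25 under normexp, 41 without the filter, 0 under quantile normalization and 0 to 1721 with an array left out. Scaling to the median of measured probes moved all genes by -0.15 in CMPs against fetal and -0.18 against adult heart, and Bmpr1a against adult heart then missed the threshold (adjusted p = 0.0565). A slide or scan block was not run, since there was 1 of each. The labels give no replicate numbers. They match the CMP cultures by chamber, which is a term in the fit, and without that term postmortem against living CMPs had 0 members passing. Signal near background limits Bmp5, Bmp7, Bmp10 and Bmpr1b.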
